A study of Mus musculus with 14 samples.

Results

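The genes described here are 29 genes of fatty acid oxidation, ketone body formation and peroxisome proliferator-activated receptor alpha (PPARA) targets, taken as the rows with those symbols among the 46855 genes of the deposited expression table. RNA sequencing of whole ileum, the last segment of the small intestine, gave 14 libraries from the inbred mouse strain C57BL/6N. Untreated mice gave 4 libraries at postnatal day 14, before weaning (P14), and 4 at day 24, after it (P24). Injected mice gave 3 libraries after recombinant mouse interleukin-22 (rmIl22), a cytokine that acts on epithelial cells. They gave 3 more after the buffer alone, phosphate-buffered saline (PBS). The injected mice received 100 µL with 0.1 µg of rmIl22 per g of body weight, or PBS alone, on days 14 and 15, and were killed on day 16. Their labelled age disagrees with this (day 14 for PBS and day 24 for rmIl22), so the groups follow the sample titles. No mouse carried a transgene or a deletion according to the labels. The numbers of libraries below are those of the deposited columns.

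Fatty acids are burned in mitochondria after transfer onto carnitine, and each turn of beta-oxidation runs through a dehydrogenase, a hydratase, a second dehydrogenase and a thiolase. Electrons leave the first dehydrogenase through the electron transfer flavoprotein, and surplus acetyl-CoA can be made into ketone bodies. PPARA is a nuclear receptor that fatty acids bind, and many of these genes are its textbook targets. Milk is rich in fat and solid chow in carbohydrate, and the intestine of suckling rodents is known for high rates of fatty acid oxidation and ketone body formation.

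Levels are given as TPM, which corrects reads for gene length and library size, so that levels of different genes can be set side by side. A fold change is a difference of means of log2(TPM + 1), tested with limma with Benjamini-Hochberg adjustment over all genes tested, and a gene was called at an adjusted p under 0.05. The added 1 TPM makes fold changes of low genes look smaller. Reads assigned to genes were 35.6 to 46.5 M per library. The 27 members tested had at least 71 reads in every library, and the remaining pair, Cyp4a10 and Cyp4a14, was too low to test. In whole tissue, fewer cells of a type and less RNA per cell cannot be told apart. The labels call the replicates biological, and p-values measure the spread between these libraries.

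Before the values, the stretches of genome that bear on neighbouring members are shown. Acot1 (chr12:84009490-84018371) and Acot2 (chr12:83987861-83993873) lie side by side on the plus strand and encode acyl-CoA thioesterases, which release free fatty acids from CoA, Acot1 in the cytosol and Acot2 in mitochondria. Their longest coding transcripts were 94.3% identical over 1330 aligned bases, with an identical run of 273 bases. The stretches before their starts, from RefSeq on GRCm38.p6, had no shared run longer than the 9 bases in capitals. They are chr12:84009252-84009489 for Acot1 and chr12:83987611-83987860 for Acot2, both on the plus strand and shown because these 2 genes had the largest falls with age.
Acot1: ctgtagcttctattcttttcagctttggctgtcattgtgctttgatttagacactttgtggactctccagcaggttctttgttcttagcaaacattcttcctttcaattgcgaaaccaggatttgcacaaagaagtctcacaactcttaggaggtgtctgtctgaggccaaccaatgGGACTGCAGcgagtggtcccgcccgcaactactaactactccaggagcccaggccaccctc
Acot2: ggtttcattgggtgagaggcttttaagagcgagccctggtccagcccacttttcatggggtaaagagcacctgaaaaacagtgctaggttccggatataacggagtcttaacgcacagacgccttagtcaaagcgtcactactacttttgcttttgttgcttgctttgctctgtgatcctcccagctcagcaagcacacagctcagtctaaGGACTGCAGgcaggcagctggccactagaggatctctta

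Hadha and Hadhb encode the subunits of the mitochondrial trifunctional protein. They start back to back on chromosome 5, Hadha on the minus strand (chr5:30118304-30155162) and Hadhb on the plus strand (chr5:30155248-30184593). The 85 bases between them, chr5:30155163-30155247 on the plus strand, hold 9 CG dinucleotides, in capitals, and are shown because the levels of these genes were close to each other in every library.
Hadha to Hadhb: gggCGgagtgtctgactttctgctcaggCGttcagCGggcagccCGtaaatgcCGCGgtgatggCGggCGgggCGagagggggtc

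The hexamer bound by nuclear receptors, AGGTCA, was searched on both strands in windows from 250 bases before to 50 after a gene start (RefSeq, GRCm38.p6). Windows were found for 23 members, and 3 of their 24 windows held it (12.5%), against 16.3% of all 32851 windows. The 3 were those of Cpt1a, Acadvl and Acadm, of which Cpt1a fell with age. The full PPAR element, 2 copies of it in the same direction with 1 base between them, was searched on both strands too, and was in 0 of the 24 and in 13 of all windows (0.04%). Every match of the full element also holds the hexamer. No match says only that these letters are not in this window.

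Between P14 and P24 most of the members fell. Of the 27 tested, 20 were lower at P24, 1 was higher and 6 were not called. The background was high in the same direction, since 43.7% of all 14651 genes tested were called lower and 14.6% higher. The median log2 fold change was -0.91 over the members and -0.25 over all genes. On TPM scaled to the same median in each library, which moves the median of all genes to 0.02, 18 members were lower and 2 were higher, with 28.3% of all genes lower and 29.5% higher. The groups did not overlap for 19 members lower at P24 and 1 higher, beside 39.4% and 13.0% of all genes. In the authors' deposited table, 19 members were lower and 2 were higher, beside 20.1% and 20.2% of its 23529 genes. The summed level of all 29 members was 2179 to 2993 TPM in the P14 libraries and 1297 to 1414 TPM in the P24 libraries.

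**Figure D1:**
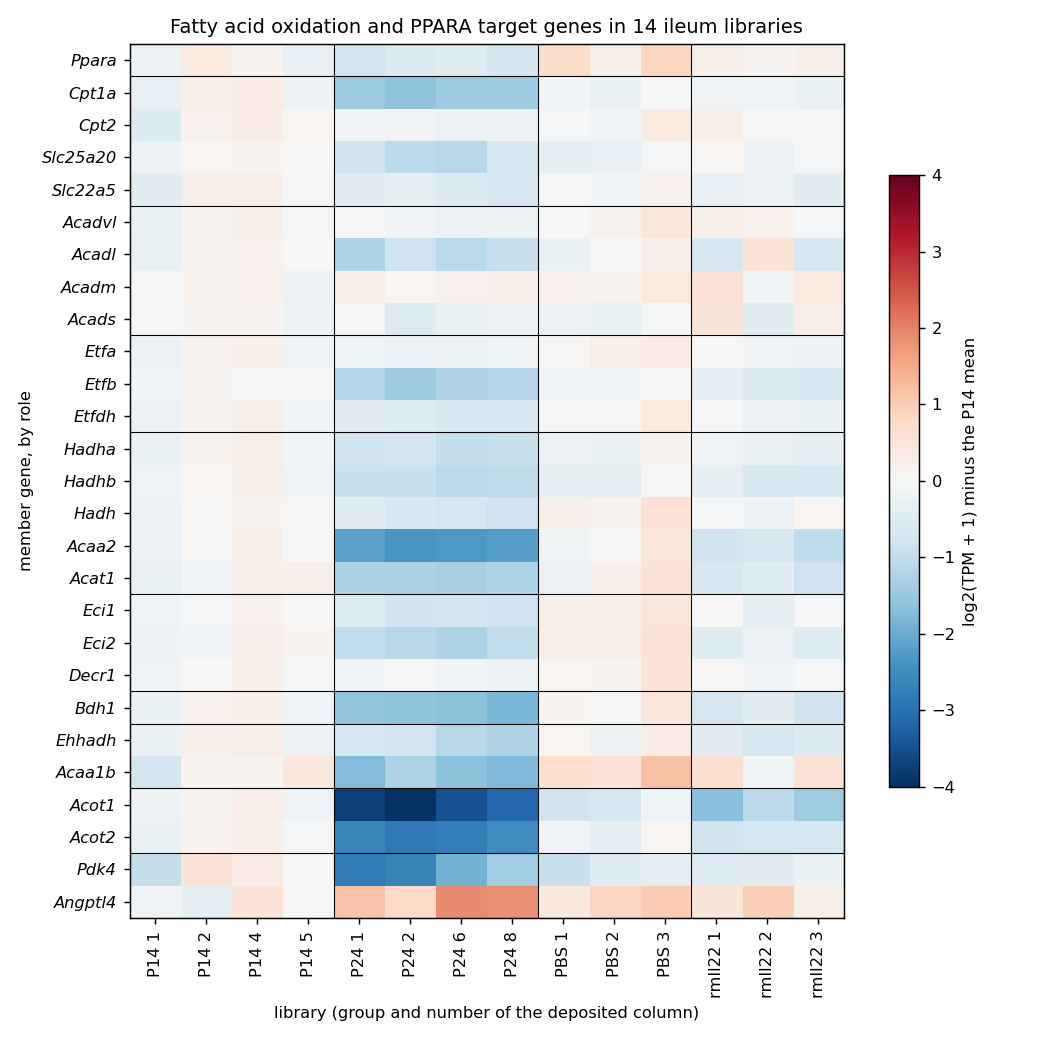
Each row is a member gene, grouped by role with lines between roles, and each column is a library. Colour gives log2(TPM + 1) minus the mean of the 4 P14 libraries, on a scale from blue (lower) to red (higher). The P24 columns are blue for most rows, darkest for Acot1, and red for Angptl4. Cyp4a10 and Cyp4a14 are left out because they had almost no reads.

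The receptor gene itself, Ppara (chr15:85734983-85802819), had 12.3, 19.1, 16.1 and 11.4 TPM at P14 (libraries 1, 2, 4 and 5) and 8.25, 9.6, 9.97 and 8.21 TPM at P24 (libraries 1, 2, 6 and 8). Every P24 library was below every P14 library. Ppara fell by 0.63 on the log2 scale (SE 0.15, limma adjusted p = 0.00388).

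Of the genes that bring fatty acids into mitochondria, Cpt1a changed most. Cpt1a (chr19:3322334-3385733) encodes the outer-membrane carnitine palmitoyltransferase, the rate-limiting step of entry. Its level was 149, 224, 233 and 162 TPM at P14 and 67.2, 61.4, 68.4 and 68.8 TPM at P24, with no overlap. It fell by 1.49 (SE 0.14, limma adjusted p = 4.78e-06). Cpt2, the inner-membrane partner enzyme, was not called, at 40.6 to 73.6 TPM against 50.6 to 54.4 TPM (log2 fold change -0.18, 95% interval -0.53 to 0.16). Without P14 library 1, the lowest of its group, Cpt2 was called lower (-0.36, limma adjusted p = 0.00733). The ratio of Cpt1a to Cpt2 TPM was 2.57 to 3.66 in the P14 libraries and 1.13 to 1.35 in the P24 libraries. Slc25a20, the exchanger that carries acylcarnitine across the inner membrane, fell by 0.91 (SE 0.12) from 85.3 ± 8.51 to 45.1 ± 7.25 TPM (SD, n = 4). Slc22a5, the carnitine transporter of the plasma membrane, fell by 0.50 (SE 0.15, limma adjusted p = 0.0134), but its groups overlapped and median-scaled TPM gave no call (adjusted p = 0.243).

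The acyl-CoA dehydrogenases, which differ in the chain length they take, did not move together. Acadl, the long-chain enzyme, fell by 1.02 (SE 0.12, limma adjusted p = 3.26e-05), from 124 to 169 TPM at P14 to 63.6 to 84.2 TPM at P24. Acadvl, the very-long-chain enzyme, was at 106 ± 15.5 and 94.6 ± 4.68 TPM (SD, n = 4) and was not called. Acads, the short-chain enzyme, missed the threshold (-0.29, limma adjusted p = 0.0502), and it was called without P14 library 5 (adjusted p = 0.0214) or P24 library 1 (adjusted p = 0.0301). Acadm, the medium-chain enzyme, had the other sign, 0.18 (95% interval -0.05 to 0.41). On median-scaled TPM Acadm was called higher at 0.49, and the authors' deposited table lists it at 0.50. The ratio of Acadl to Acadm was 2.55 to 3.52 at P14 and 1.03 to 1.56 at P24.

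The electron transfer flavoprotein is made of one chain each of Etfa and Etfb, and the level of its genes parted with age. Etfb was at 67.6, 78.2, 71.6 and 73.2 TPM at P14 and at 32, 25.9, 31.2 and 31.9 TPM at P24, and fell by 1.24 (SE 0.10, limma adjusted p = 8.14e-07). Etfa was not called, at 86.3 to 116 TPM against 85.1 to 91.9 TPM (-0.19, 95% interval -0.42 to 0.05). The ratio of Etfb to Etfa was 0.619 to 0.795 at P14 and 0.301 to 0.366 at P24. Etfdh, the dehydrogenase that hands these electrons to ubiquinone, fell by 0.55 (SE 0.11, limma adjusted p = 0.00156).

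**Figure D2:**
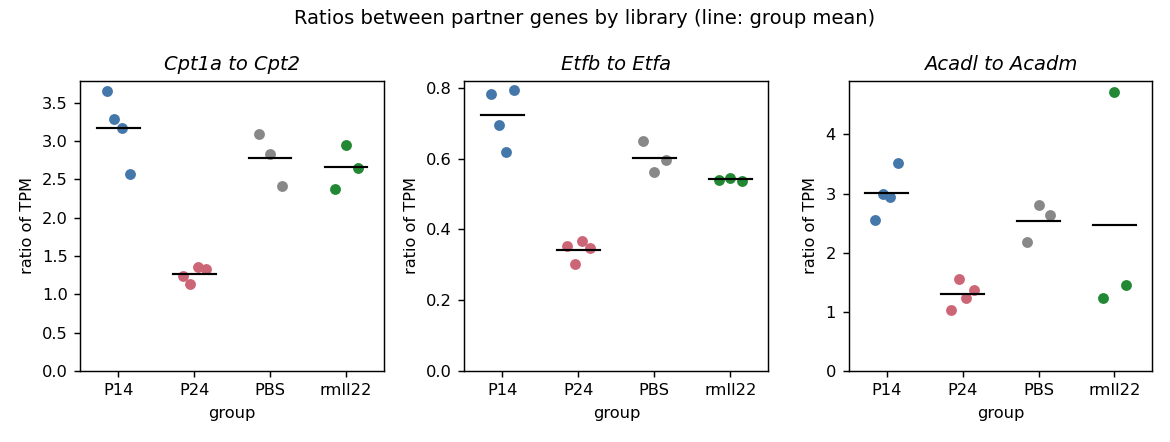
Points are the ratio of TPM of the named genes in each library and lines are group means, on axes that start at 0. All 4 P24 libraries lie below the P14 libraries in each panel, and rmIl22 library 2 stands at 4.72 for Acadl to Acadm while the other rmIl22 libraries are at 1.24 and 1.45.

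All 5 genes of the later steps of the cycle fell. Acaa2, the mitochondrial 3-ketoacyl-CoA thiolase, was the most abundant member at P14, with 369, 447, 515 and 430 TPM. At P24 it had 98.4, 85.8, 88.8 and 93.7 TPM, far below the P14 range, and it fell by 2.24 (SE 0.11, limma adjusted p = 1.56e-08). Acat1, the acetoacetyl-CoA thiolase that joins the cycle to ketone bodies, had 100, 115, 141 and 144 TPM against 51.1, 51.3, 48.7 and 51.6 TPM. It fell by 1.27 (SE 0.12, limma adjusted p = 3.54e-06), and its P24 libraries lay within a narrow range. Hadha and Hadhb fell by 0.84 (SE 0.12) and 0.97 (SE 0.11), and the ratio of Hadhb to Hadha was 0.851 to 0.949 at P14 and 0.795 to 0.819 at P24. Hadh, the short-chain hydroxyacyl-CoA dehydrogenase, fell by 0.64 (SE 0.12, limma adjusted p = 0.000766), a call that ended on median-scaled TPM (adjusted p = 0.051).

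Unsaturated fatty acids need further enzymes. Eci2, an enoyl-CoA isomerase of peroxisomes and mitochondria, fell by 1.07 (SE 0.11, limma adjusted p = 1.05e-05), from 76.2 ± 10.5 to 35.6 ± 3.03 TPM (SD, n = 4). Eci1, the mitochondrial isomerase, fell by 0.72 (SE 0.10, limma adjusted p = 0.000101). Decr1, the dienoyl-CoA reductase, was not called, at 55.6 to 69.9 TPM against 53.3 to 60.6 TPM (-0.13, 95% interval -0.33 to 0.08).

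Bdh1 (chr16:31422280-31458901) encodes the enzyme that interconverts acetoacetate and beta-hydroxybutyrate. It had 127, 171, 178 and 136 TPM at P14 and 50.2, 48.5, 48.3 and 42.2 TPM at P24, with no overlap, and fell by 1.66 (SE 0.12, limma adjusted p = 4.88e-07). Of the 8 other ketone body genes tested, 4 were lower at P24 and 2 were higher, with a median of -0.70. Over all genes tested, 43.7% were lower and 14.6% higher, with a median of -0.25. Acss1, a mitochondrial acetyl-CoA synthetase, fell by 1.56 and Sirt3, a mitochondrial deacylase, by 1.18. The genes that rose were Aacs, which activates acetoacetate in the cytosol (1.36), and Oxct1, which lets mitochondria burn ketone bodies (0.77).

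Peroxisomes shorten very long chains. Ehhadh, the bifunctional enzyme, fell by 0.94 (SE 0.15, limma adjusted p = 0.000318), from 62.2 to 91.2 TPM to 31.7 to 46 TPM. Acaa1b, a peroxisomal thiolase, had 5.43, 11, 11 and 13.6 TPM at P14 and 2.24, 3.57, 2.49 and 2.17 TPM at P24, and fell by 1.59 (SE 0.23, limma adjusted p = 0.000107). Its near copy Acaa1a, 96% identical over 1450 bases with an identical run of 327 bases, rose by 0.55, from 28 ± 2.28 to 41.5 ± 1.53 TPM (SD, n = 4). Reads could be split between the copies. Of the 20 other peroxisomal genes, 9 were lower and 6 were higher, with a median of -0.30. Over all genes tested, 43.7% were lower and 14.6% higher, with a median of -0.25, so the falls in this list were near the background. The largest falls were those of Acot3 (-2.37), a thioesterase, Acox2 (-1.82), an oxidase for branched chains, and Pecr (-1.62), an enoyl-CoA reductase. The largest rises were those of Pex11a (0.77), a factor of peroxisome division, and the membrane transporters Abcd3 (0.75) and Abcd2 (0.71).

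The thioesterases had the largest falls of all members. Acot1 was at 46.6, 58.1, 65.3 and 48.7 TPM at P14 and at 3.11, 2.55, 3.9 and 5.21 TPM at P24, a fall of 3.59 (SE 0.17, limma adjusted p = 1.16e-08). Acot2 was at 27.7, 37.8, 39.3 and 31.8 TPM against 4.77, 3.8, 4.15 and 5.04 TPM, a fall of 2.68 (SE 0.13, limma adjusted p = 1.23e-08). Every P14 library was well above every P24 library for both. The ratio of Acot1 to Acot2 was 1.53 to 1.68 at P14 and 0.651 to 1.04 at P24. How reads from their identical stretches were assigned is not given in the sources used here.

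Among the other PPARA targets, Pdk4 and Angptl4 went opposite ways. Pdk4 encodes the kinase that shuts pyruvate out of mitochondrial oxidation. It had 8.95, 27.3, 23.3 and 18.8 TPM at P14 and 1.68, 2.04, 4.16 and 6.39 TPM at P24, and fell by 2.19 (SE 0.36, limma adjusted p = 0.0003). P14 library 1 was the lowest of its group and still above every P24 library. Angptl4 encodes a secreted inhibitor of lipoprotein lipase. Its level was 6.37, 5.17, 10.8 and 7.22 TPM at P14 and 16.8, 13.3, 29.4 and 28.2 TPM at P24, and it rose by 1.42 (SE 0.26, limma adjusted p = 0.000628), the single member called higher. Fat cells also make Angptl4, and 7 of the 9 adipocyte markers tested rose and 1 fell, beside 14.6% and 43.7% of all genes. The summed level of the adipocyte markers was 146 to 201 TPM at P14 and 271 to 469 TPM at P24. Adipoq, the fat cell hormone adiponectin, was at 0 to 12.8 TPM and 32 to 57.9 TPM in these groups. Their part in the rise of Angptl4 was not tested.

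Cyp4a10 and Cyp4a14, microsomal enzymes that oxidise the far end of fatty acids and are classic PPARA targets in liver, were at or near 0. Cyp4a10 had 2 reads in each of P14 libraries 2, 4 and 5 and PBS library 3, and Cyp4a14 had 1 read in P14 library 1. Every other library had 0 reads, for which the limit was set at 3 reads, covering counting error only. Cyp4a10 has near copies (97.2% identical to Cyp4a32 and 95.7% to Cyp4a31).

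**Figure D3:**
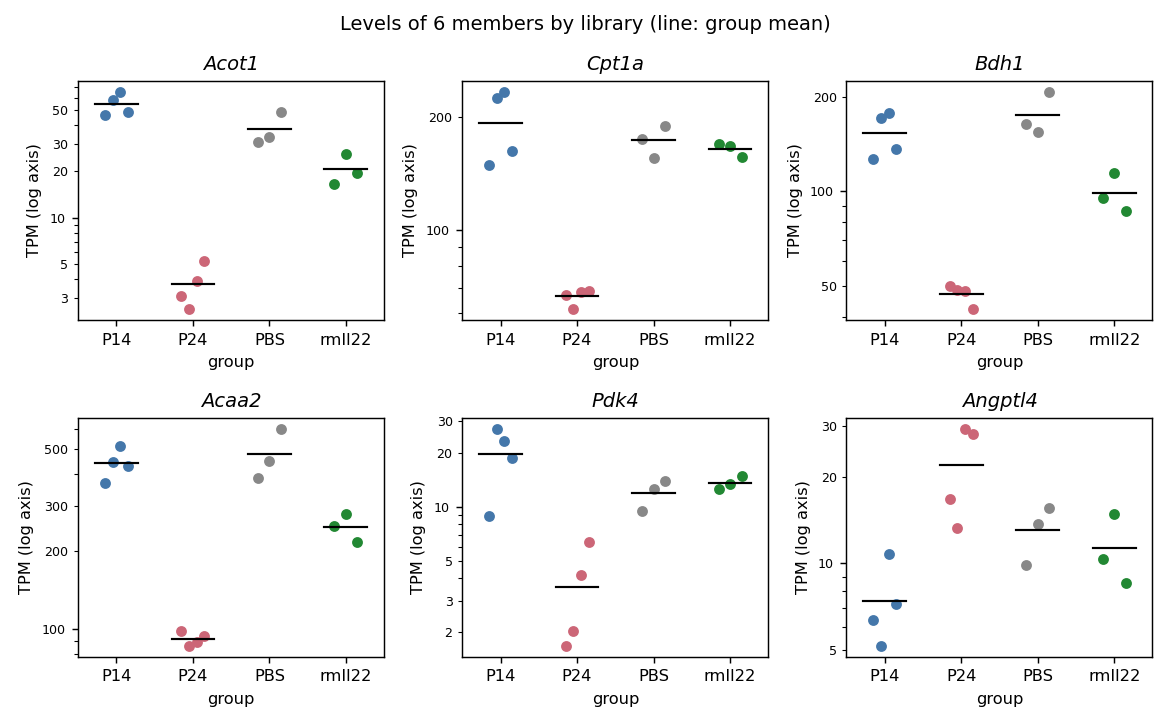
Points are libraries and lines are group means, in TPM on log axes. For Acot1, Cpt1a, Bdh1, Acaa2 and Pdk4 the P24 libraries are lowest, and for Angptl4 they are highest apart from an overlap of P24 library 2 with the injected groups.

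The other genes of the pathway, taken from lists of textbook members, moved in both directions. Beside each count below stands the background of all genes tested, with 43.7% lower, 14.6% higher and a median of -0.25. Of 14 genes of fatty acid activation and entry tested, 9 were lower and 1 was higher (median -0.59). The acyl-CoA synthetase genes Acsl3 and Acsl1 fell by 2.47 and 1.49, the coenzyme A carrier Slc25a42 fell by 1.39, and Acacb, which makes the inhibitor of CPT1, rose by 0.41. Of 12 other mitochondrial beta-oxidation genes, 9 were lower and 2 were higher (median -0.51). Acad11, Acad10 and Acad12, further acyl-CoA dehydrogenases, fell by 1.34, 1.27 and 1.05, whereas the thioesterase Acot9 rose by 0.92 and the carboxylase subunit Pcca by 0.34. Of 25 PPAR receptors, partners and other textbook targets, 11 were lower and 10 were higher, with a median of -0.09. Plin2, a lipid droplet coat protein, fell by 3.05, Creb3l3, a membrane-bound transcription factor of lipid handling, by 2.32 and Cidea, a lipid droplet protein, by 0.76. Vnn1, which encodes pantetheinase, rose by 2.45, and Cyp4b1 rose by 1.37. Ppard, the sister receptor of PPARA, rose by 1.76 (SE 0.16, limma adjusted p = 2.35e-06), from 5.16 ± 1.06 to 19.9 ± 3.75 TPM (SD, n = 4). The coactivator gene Ppargc1a fell by 0.31 (limma adjusted p = 0.04), Fabp1, a fatty acid carrier, was not called (limma adjusted p = 0.81) and Fgf21, a fasting hormone, was at most 0.181 TPM in every library and not tested.

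Other measures moved with age beside the members. Of 11 epithelial markers, 5 rose and 2 fell, one of them Alpi, the alkaline phosphatase of the brush border (-1.99), and their summed level was 7233 to 9198 TPM at P14 and 11414 to 14424 TPM at P24. Of 11 nuclear genes of general mitochondrial mass, 3 rose and 1 fell, with a median of 0.16 and a summed level of 1012 to 1257 TPM against 1176 to 1440 TPM. Lower at P24 were 6 of 8 fibroblast and matrix markers, 7 of 8 endothelial markers and 7 of 7 markers of neurons and glia. Higher were 3 of 8 B and plasma cell markers and 3 of 7 markers of T, natural killer and innate lymphoid cells. So were 3 of 10 smooth muscle markers, and no marker of these rising lists was lower. Of 7 hepatocyte markers tested, 4 were lower and 2 higher. Over all genes tested, 43.7% were lower and 14.6% higher. Hoxb9, a gene of the posterior gut, was at 1.51 to 5.91 TPM at P14 and 9.17 to 14.8 TPM at P24. Gata4, a gene of the proximal small intestine, was at 0.119, 0.378, 6.57 and 7.51 TPM in P14 libraries 1, 2, 4 and 5. At P24 it was at 0.145 to 1.36 TPM, so the P14 libraries were split in this gene. Libraries with more of the Y-linked Ddx3y than of Xist numbered 2 of 4 at P14 and 1 of 4 at P24. With a term for this added to the fit, each of the 21 calls kept its sign and its side of the threshold. The part of the other measures in the members' fall was not tested.

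For interleukin-22 the question is which of these changes a cytokine dose before weaning brings. Few members passed the test. Of the 27 tested, 2 were called lower in rmIl22 than in PBS and none was called higher by limma. Over all 14456 genes tested, 2.25% were called lower and 0.443% higher. The median log2 fold change was -0.32 over the members and -0.05 over all genes. In 15 members every rmIl22 library was below every PBS library, in a comparison where 15.4% of all genes were so and 5.62% were apart the other way. The summed level of the members was 2486, 2569 and 3275 TPM in PBS and 2182, 2143 and 2003 TPM in rmIl22.

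The libraries stood apart in genes of gut position, which were picked out after their values were seen. Gata4, a transcription factor of the proximal small intestine, was at 10.8, 13.8 and 17.4 TPM in PBS libraries 1 to 3 and at 0.0983, 15.8 and 0.177 TPM in rmIl22 libraries 1 to 3. Hoxb9 was at 0.435, 1.09 and 0.439 TPM in PBS and at 18.3, 0.349 and 15.7 TPM in rmIl22. So rmIl22 library 2 resembled the PBS libraries in these genes, and rmIl22 libraries 1 and 3 did not. Ddx3y exceeded Xist in 3 of 3 PBS and 1 of 3 rmIl22 libraries. Saa1 and Reg3g, antimicrobial genes that IL-22 is known to raise, were at 1634 to 1882 TPM and 3506 to 8476 TPM in all 3 rmIl22 libraries, against 7.28 to 27.8 TPM and 52.2 to 417 TPM in PBS. Results are also given without rmIl22 library 2. That fit keeps only the rmIl22 libraries that differ from PBS in Gata4 and Hoxb9, so gut position and treatment cannot be told apart in it. In the fit of all injected libraries, only rmIl22 library 2 resembles PBS in these genes, so most of the same limit holds there.

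The 2 members called were Eci2 and Bdh1. Eci2 (chr13:34977748-35027096) had 90.9, 87.4 and 112 TPM in PBS and 54.1, 63.9 and 52.8 TPM in rmIl22, and fell by 0.75 (SE 0.14, limma adjusted p = 0.0386). Bdh1 had 164, 154 and 207 TPM in PBS and 95.5, 114 and 86.4 TPM in rmIl22, and fell by 0.82 (SE 0.16, limma adjusted p = 0.0462). For both, rmIl22 library 2 was the highest of its group and below every PBS library. Each of these calls was lost in 11 of 14 alternatives. The limma adjusted p ranged from 0.00384 to 0.163 for Eci2 and from 0.00503 to 0.19 for Bdh1 over the alternatives. Neither was called, for instance, without a filter on low genes, on median-scaled TPM, without any 1 PBS library or without rmIl22 library 1 or 3. With a term for Y-linked expression, chosen after the data were seen, neither was called, at -0.82 for Eci2 and -0.86 for Bdh1. Ddx3y exceeded Xist in 3 of 3 PBS libraries but only in library 1 of rmIl22. With the term, the rmIl22 effect therefore rests on rmIl22 library 1 against PBS, and the lost calls cannot decide the part of sex.

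The other 13 members whose groups did not overlap were not called. Acaa2 had 385, 451 and 601 TPM in PBS and 252, 279 and 218 TPM in rmIl22 (log2 fold change -0.92, limma adjusted p = 0.0547). Acat1 had 104, 144 and 181 TPM against 78.7, 88.9 and 68.7 TPM (-0.83, limma adjusted p = 0.0976). Acot1 had 30.9, 33.1 and 48.7 TPM against 16.5, 25.8 and 19.5 TPM (-0.83, limma adjusted p = 0.108). In each of these 3 genes rmIl22 library 2 was the closest to PBS. Acot2 had 31.2, 26.1 and 36 TPM against 19.1, 20.4 and 20.8 TPM (-0.60, limma adjusted p = 0.0701). Ehhadh had 78.8, 65.4 and 92.7 TPM against 54.5, 45.3 and 51.6 TPM (-0.63, limma adjusted p = 0.0836). Eci1 had 142, 141 and 165 TPM against 119, 92.7 and 115 TPM (-0.46, limma adjusted p = 0.153). For Ehhadh and Eci1, rmIl22 library 2 was the lowest of all 6.

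The 3 electron transfer genes, the receptor gene and 3 further members were also lower without a call. Etfb had 67.8, 64.5 and 75.4 TPM in PBS and 55, 49.6 and 47.6 TPM in rmIl22 (-0.44, limma adjusted p = 0.0995). Etfa had 105, 115 and 127 TPM against 102, 90.9 and 88.4 TPM (-0.30, limma adjusted p = 0.289). Etfdh had 33.9, 34.1 and 43.6 TPM against 32, 28 and 27.3 TPM (-0.34, limma adjusted p = 0.288). The gap between groups was small for Etfa and Etfdh, where rmIl22 library 1 came close to the lowest PBS library. Ppara had 23.9, 17.2 and 26.7 TPM in PBS and 16.9, 15.7 and 16.7 TPM in rmIl22 (-0.42, limma adjusted p = 0.285). Hadh had 264, 255 and 341 TPM against 224, 201 and 245 TPM (-0.35, limma adjusted p = 0.326). Slc22a5 had 62.2, 61.5 and 74.2 TPM against 52.4, 57.6 and 47.4 TPM (-0.32, limma adjusted p = 0.276). PBS library 3 was the highest library for each of these genes. Decr1 had 64.9, 66.3 and 87.7 TPM against 63.9, 55.9 and 58.1 TPM (-0.28, limma adjusted p = 0.425), with a gap between groups smaller than the spread within each.

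The 12 members whose groups overlapped included the entry step. Cpt1a had 175, 155 and 189 TPM in PBS and 169, 167 and 156 TPM in rmIl22 (-0.07, 95% interval -0.35 to 0.20). Slc25a20 (0.19, interval -0.11 to 0.49), Pdk4 (0.17, interval -0.20 to 0.55) and Cpt2 (-0.01, interval -0.41 to 0.39) were not called either. Acaa1b, Hadhb, Hadha, Angptl4, Acadvl and Acadm lay between -0.47 and 0.07. Acadl and Acads turned on 1 library. Acadl had 125, 152 and 175 TPM in PBS and 94.9, 222 and 96.5 TPM in rmIl22, so that rmIl22 library 2 was the highest of all and the others the lowest. Acads had 94.9, 90.4 and 108 TPM against 156, 80.3 and 133 TPM, the reverse order. Without rmIl22 library 2, 7 members were called lower and 1 higher, beside 5.64% and 3.24% of all genes. The 7 were Eci2, Bdh1, Acaa2, Acat1, Acot1, Acot2 and Acadl (-0.64, limma adjusted p = 0.0433), and the 1 was Acads (0.56, limma adjusted p = 0.0394). The rmIl22 libraries left in that fit also differed from PBS in Gata4 and Hoxb9, so these calls cannot be assigned to the treatment.

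**Figure D4:**
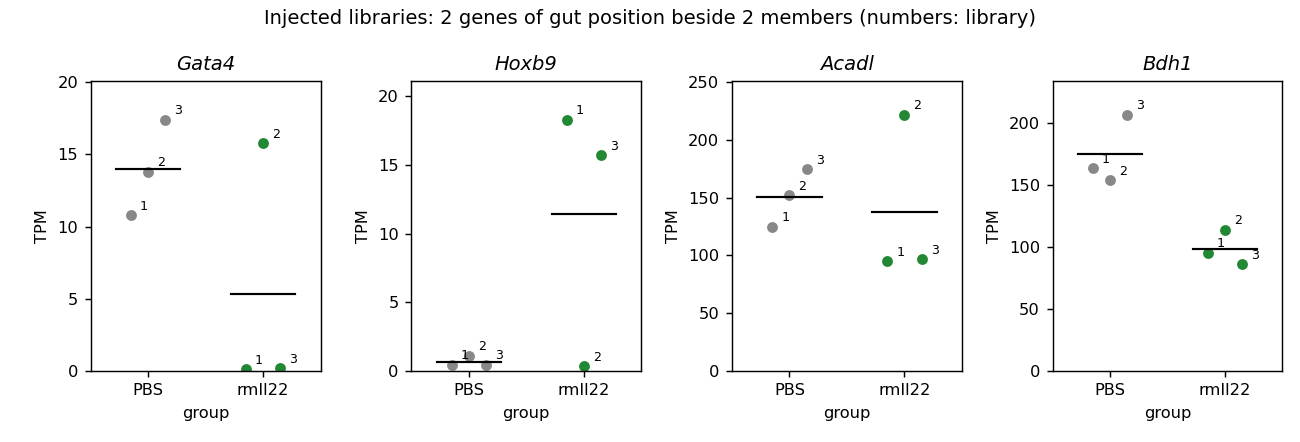
Points are the PBS and rmIl22 libraries with their numbers, lines are group means, and the axes are TPM from 0. In rmIl22 library 2, Gata4, Hoxb9 and Acadl lie with or beyond the PBS libraries, whereas Bdh1, at 114 TPM, lies below the PBS range of 154 to 207 TPM.

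The part of gut position in the rmIl22 values was not tested. The term for Y-linked expression is the 1 fit that bears on the sex-linked difference. In it the rmIl22 effect rests on rmIl22 library 1 against PBS, so it cannot decide the part of sex.

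The authors' deposited table of rmIl22 against PBS lists 1102 genes, all with an adjusted p under 0.05, and 8 members are among them. They were all lower, from -0.42 for Eci1 to -0.88 for Acaa2, and the others were Acat1, Acot1, Bdh1, Eci2, Ehhadh and Acot2. When all 14 libraries were fitted together, limma also called 8 members lower and 0 higher, where 5.13% of all genes were called lower and 1.48% higher. These had Etfb in place of Ehhadh.

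The other pathway genes called in rmIl22 are named here, beside 2.25% of all genes tested called lower and 0.443% called higher. These shares also stand beside the marker counts further on. Slc27a4, a fatty acid transport protein, fell by 0.70 (limma adjusted p = 0.0493) and was the 1 of 14 activation and entry genes called. Acot3 fell by 1.64 (limma adjusted p = 0.0195) as the 1 of 20 peroxisomal genes, and Acss1 by 1.23 (limma adjusted p = 0.0125) as the 1 of 8 ketone body genes. Me1, the cytosolic malic enzyme, fell by 1.44 (limma adjusted p = 0.0273) as the 1 of 25 PPAR-related genes. The 12 other mitochondrial genes had a median log2 fold change of -0.29. The 11 epithelial markers had a median of 0.16, with a summed level of 9324 to 11004 TPM in PBS and 8428 to 12310 TPM in rmIl22, and the 11 genes of mitochondrial mass had a median of -0.12. Markers of other cells were called in 3 lists. Of 8 macrophage and dendritic cell markers 1 was lower, Csf1r (-1.16, limma adjusted p = 0.0151), and the list summed to 246 to 302 TPM in PBS and 193 to 241 TPM in rmIl22. Of 5 hepatocyte markers tested, Ttr (-2.03, limma adjusted p = 0.0126) and Cps1 (-1.06, adjusted p = 0.0209) were lower and Tat (1.59, adjusted p = 0.0167) was higher, with sums of 1470 to 1908 and 898 to 1589 TPM. Alb, the albumin gene that defines hepatocytes, was at most 0.159 TPM in these libraries. Of 3 pancreatic acinar markers tested, Clps was lower (-0.73, limma adjusted p = 0.0416), with sums of 92.5 to 132 and 64.1 to 69.5 TPM. Ctrb1, another of the 3, was not called (limma adjusted p = 0.286). It was at 6.53, 18.2 and 19.7 TPM in PBS and at 1.57, 12 and 0.501 TPM in rmIl22. Prss2, Cpa1, Pnlip and Cel were at 0 in every PBS library and at most 0.957 TPM in rmIl22. The part of these markers in the members' values was not tested.

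The age and rmIl22 effects share no library, and the difference between them was tested in a fit of all 14. The gut position genes Gata4 and Hoxb9 differed between libraries in both comparisons, and their part in the values below was not tested. Of the 27 members, 11 differed in the positive direction (the fall was larger with age than with rmIl22) and 1, Angptl4, in the negative one. Over all 15702 genes, 17.3% and 6.51% did so, and the medians were 0.44 for the members and 0.20 for all genes. The largest differences were those of Acot1 (2.76, SE 0.30, limma adjusted p = 2.66e-05), Pdk4 (2.37, SE 0.50, adjusted p = 0.0048) and Acot2 (2.09, SE 0.19, adjusted p = 6.6e-06). Acot1 and Acot2 were also lower in each rmIl22 library than in each PBS library, whereas Pdk4 was not.

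Cpt1a differed by 1.42 (SE 0.20, limma adjusted p = 0.000292) and Slc25a20 by 1.11 (SE 0.18, adjusted p = 0.000965). These genes of entry fell with age and had an rmIl22 effect whose interval spans 0. Acaa2 differed by 1.32 (SE 0.21, adjusted p = 0.000664), Bdh1 by 0.84 (SE 0.20, adjusted p = 0.00952) and Etfb by 0.80 (SE 0.14, adjusted p = 0.00125). Hadha (0.68, limma adjusted p = 0.0202) and Hadhb (0.67, adjusted p = 0.0196) were called too, but not without PBS library 1 or without PBS library 2. Acaa1b (1.12, limma adjusted p = 0.0464) lost its call in 14 of 20 alternatives. Angptl4 differed by -1.62 (SE 0.40, limma adjusted p = 0.0111), with an rmIl22 effect of -0.20 (95% interval -0.74 to 0.33).

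For Eci2, Acat1, Eci1 and Ehhadh, which the authors' deposited tables list as lower in both comparisons, no difference was called. The differences were 0.32 for Eci2 (95% interval -0.06 to 0.70), 0.44 for Acat1 (-0.07 to 0.95), 0.27 for Eci1 (-0.08 to 0.61) and 0.32 for Ehhadh (-0.19 to 0.83). These intervals do not show that both effects were alike, since their upper ends lie between 0.61 and 0.95.

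**Figure D5:**
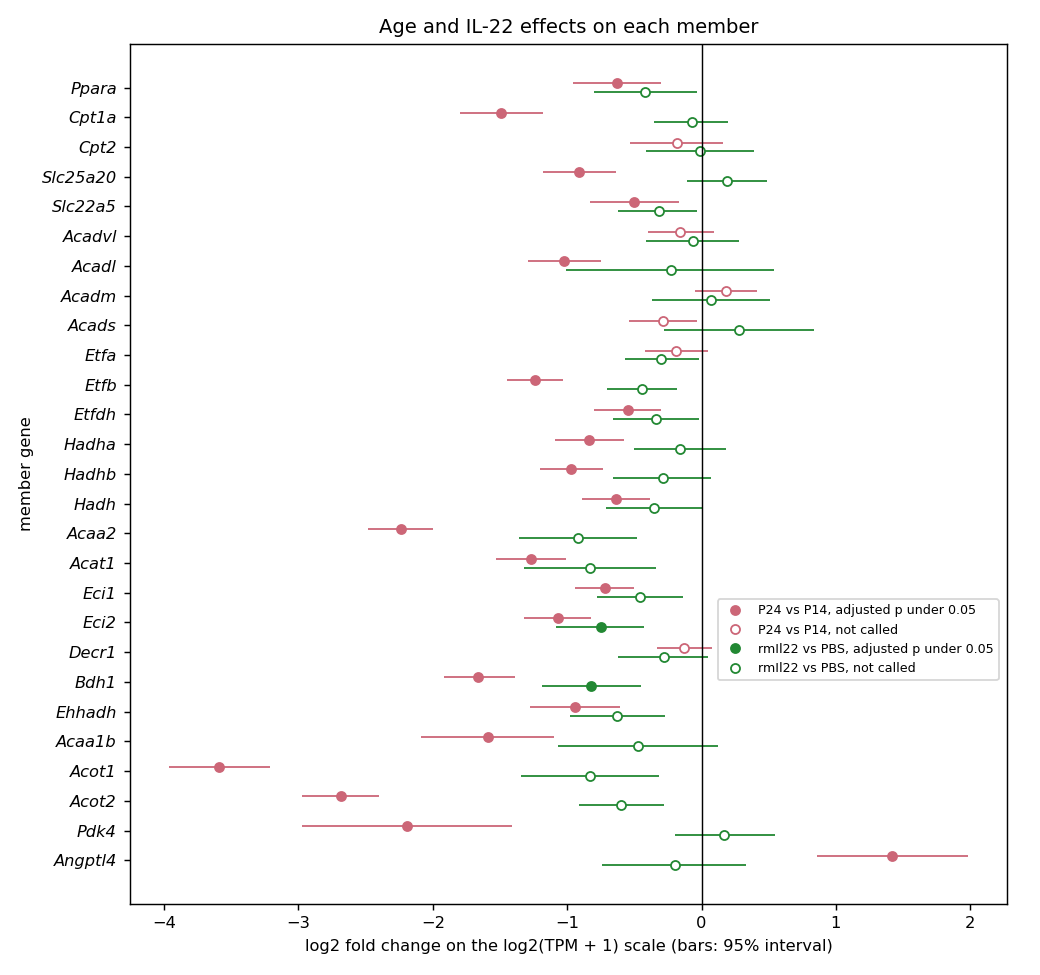
Points are log2 fold changes on the log2(TPM + 1) scale for P24 against P14 (red) and rmIl22 against PBS (green), filled where the limma adjusted p was under 0.05, and bars are 95% intervals. Red points lie further left than green ones for Acot1, Acot2, Pdk4, Acaa2 and Cpt1a, and their bars overlap for Eci2.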

How the data were processed

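RNA was measured in 14 libraries of mouse ileum. Ribosomal RNA was removed and libraries kept strand, per the labels' protocols. The authors deposited TPM per gene symbol, and 2 comparison tables that hold log2 fold changes with adjusted p-values. The submitters' processing notes name FastQC 0.11.2, STAR 2.4.0f, HTSeq 0.6.1p1, DESeq2 1.14 and mm10. What each did, the annotation release and the strand setting: not given in the sources used here. Of the 46882 entries, 27 with symbols turned into dates were left out.

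From the deposited TPM, log2(TPM + 1) was fitted in R 4.3.3 by limma 3.58.1, using its intensity trend. Genes needed at least 1 TPM in at least 4 libraries for age and at least 3 otherwise. Tests were two-sided with a threshold of 0.05 on the p-value adjusted over all tested genes (Benjamini-Hochberg). The fit was tested on simulated data. Whole reads (within 0.01) were recovered from the TPM steps for all 31189 genes with a value above 0, and a voom fit on them was an alternative. The smallest whole numbers were taken, so reads of low genes can be undercounted. The deposited column numbers of P14 and P24 are not the labels' replicate numbers, so those columns were assigned to groups only.

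Members were grouped by role. Values of every library are given for the 8 largest called falls and rises per comparison, for Ppara, Cpt1a and Bdh1, and for members not called whose groups were apart. Of other pathway lists, the 3 largest called changes in each direction are named, with Ppard, Ppargc1a, Fgf21 and Fabp1. Some items that this rule names are not reported here. Etfb with age, and Acadl and Acads with rmIl22, were given by library after their values were seen. The members and lists were chosen with earlier results of these data known. Gene positions are from GENCODE M21 (GRCm38), and transcript identity replaced the protein identity that had been planned.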

Additional observations from a re-analysis of the deposited data

Results flagged for a closer look

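In 2 of 54 sets of values examined (27 tested members in each group of 4 libraries), 1 library lay far from the other 3, with a gap to its nearest neighbour above Dixon's critical share of the range. Etfb in P24 library 2 had 25.9 TPM, and the other P24 libraries had 31.2 to 32 TPM. Acat1 in P24 library 6 had 48.7 TPM, and the others had 51.1 to 51.6 TPM. Chance marks about 5% of such sets. Both genes fell with age without either library.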

How the results depend on the processing

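The alternatives were another pseudocount (0.1 TPM), no filter, TPM scaled to equal medians, quantile normalisation, voom on recovered reads, 1 fit of all 14 libraries, each library left out, a replicate block for the injected mice and an added term for Y-linked expression. With age, 2 members were higher on median-scaled TPM, quantile normalisation and voom, where all genes called higher were 4323, 4041 and 3906, and 4139 were lower on median-scaled TPM. Without 1 library, 20 to 21 members were lower and 1 was higher, with 1940 to 2313 genes higher and 5532 to 7082 lower. Of the members not called with age, the sign turned for Cpt2 (0.12 and 0.07), Acadvl (0.15 and 0.10), Etfa (0.12 and 0.06) and Decr1 (0.18 and 0.13) on median-scaled TPM and voom, for Acads on the first (0.02) and for Decr1 on quantile normalisation (0.03).

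With rmIl22, 0 members were lower without a filter, on median-scaled TPM, quantile normalisation, voom, with the replicate block or with the Y-linked term, and 8 in 1 fit of all libraries. All genes called higher were 19 without a filter, 233 in 1 fit and 42 with the Y-linked term. Those called lower were 79, 806 and 80, and 202 on quantile normalisation. Without 1 library, 0 to 7 members were lower and 0 to 1 higher, with 1 to 483 genes higher and 3 to 841 lower. The sign turned, without a call, for Cpt1a (0.06 on quantile normalisation, 0.01 on voom), for Cpt2 (0.06, 0.12 and 0.07 on median-scaled TPM, quantile normalisation and voom, 0.19 with the Y-linked term, and -0.11 to 0.15 without 1 library) and for Acadvl (0.01, 0.05 and 0.02 on the same scalings, 0.03 with the term, and -0.16 to 0.06 without 1 library). Acadm was at -0.08 to 0.27 without 1 library.

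For the difference of effects, 3 members were negative on median-scaled TPM and 2 on voom, with 2214, 1964 and 1937 of all genes negative on median-scaled TPM, quantile normalisation and voom. Without 1 library, 8 to 12 members were positive and 1 negative, with 1640 to 3889 genes positive and 760 to 1108 negative. The cause was not tested.

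The deviations of same-numbered injected libraries from their group means had correlations of -0.0673, 0.333 and -0.0489. Over all pairs of a PBS and an rmIl22 library the correlations ran from -0.338 to 0.405. With 3 libraries a group, these values cannot decide whether the numbers mark pairs. The block gave 0 members lower in place of 2. Age was not analysed in pairs. P14 and P24 are separate mice, and their deposited columns do not carry the labels' replicate numbers. With 3 libraries a group, intervals of the rmIl22 effects are wide, and the depth gave at least 71 reads to each tested member.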

Other observations

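The PBS libraries of day 16 differ from the untreated libraries in age and in injection, so they were not tested against them. They also lay apart from the P14 libraries in genes of gut position. Gata4 was at 10.8 to 17.4 TPM in PBS and 0.119 to 7.51 TPM at P14. Hoxb9 was at 0.435 to 1.09 TPM in PBS and 1.51 to 5.91 TPM at P14. Age, injection and gut position cannot be told apart in the levels that follow. In level, Acot1 was 30.9 to 48.7 TPM in PBS and 46.6 to 65.3 TPM at P14, Acot2 was 26.1 to 36 and 27.7 to 39.3 TPM, and Acaa1b, the peroxisomal thiolase, was 15.2 to 23.5 and 5.43 to 13.6 TPM. Angptl4, the lipase inhibitor, was 9.84 to 15.6 TPM in PBS and 5.17 to 10.8 TPM at P14. Summed by role, the 5 hydratase, dehydrogenase and thiolase genes gave 793 to 1091 TPM at P14, 351 to 406 TPM at P24, 875 to 1286 TPM in PBS and 639 to 683 TPM in rmIl22. The 4 genes of entry and the carnitine shuttle gave 310 to 478, 203 to 219, 339 to 422 and 343 to 383 TPM in the same order.

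The ratio of Hadhb to Hadha, genes that share the 85 bases between their starts, was 0.798 to 0.824 in PBS and 0.701 to 0.761 in rmIl22, below the PBS range in all 3 libraries. Acot12, a thioesterase gene that is no member, was at 0.262, 9.43 and 0.3 TPM in rmIl22 libraries 1 to 3 and 4.25 to 33.3 TPM in PBS, the same split by library as Gata4.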
